A study of Mus musculus with 16 samples.

Results

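The colon communities of Mertk knockout mice and wild-type mice that drank plain water were compared by 16S ribosomal RNA gene sequencing, in 4 mice of each genotype out of the 16 mice of the study. An amplicon sequence variant (ASV) is an exact sequence read from the 16S gene, so that closely related bacteria of one genus can be counted apart. The comparison covered 1056 of the 1901 ASVs in the count table, those with at least 10 counts in total and counts in at least 3 of the 16 libraries, and the same counts summed into 122 genus-level groups and 57 families. Of the 1056 ASVs, 977 had a count in the 8 water mice and 79 had none there. The ASVs outside this selection held between 1.65% and 3.53% of the counts of a water mouse. Each of the 8 libraries held 96469 counts, and 3 counts, taken here as the level below which an absence cannot be told from a rare presence, stand for 0.00311% of a library.

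Both genotypes were on a C57BL/6J background, were between 8 and 10 weeks old, lived in one specific pathogen-free facility on standard chow, and were sampled on day 8 after 7 days on sterile water. The other 8 mice received 2.5% dextran sulfate sodium (DSS), a polymer that injures the colon lining, in the water for the same time. Genotype was read from the sample titles, since the genotype field names the same strain for all mice. How the knockout was made, and whether it is confined to a cell type, is not given, and a 16S table holds no mouse gene with which to check it. The labels give no cage, litter or breeding scheme, so the genotype cannot be told apart from housing or descent that the 4 mice of a genotype may share. The samples are described as rinsed distal colon tissue, while the protocol text describes a messenger RNA library, so whether the template was bacterial DNA or RNA is not settled. The values are shares of a fixed total, in which fewer bacteria of one kind and more of the others cannot be told apart.

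MERTK is a receptor tyrosine kinase of macrophages that takes part in the uptake of dying cells. The mouse colon is dominated by anaerobes of the phyla Bacteroidota, such as Muribaculaceae and Rikenellaceae, which break down plant and host glycans, and Firmicutes, such as Lachnospiraceae and Oscillospiraceae, which ferment carbohydrates to short-chain fatty acids. Strains of one family can share much of their metabolism and still differ in sequence, so a community can be described at the level of the ASV, the genus or the family.

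Firmicutes made up 50.1% ± 5.21 of wild-type and 55.3% ± 3.02 of knockout counts (SD, n = 4 each, exact permutation p = 0.114), and Bacteroidota 40.3% ± 4.12 and 40.9% ± 2.69 (exact permutation p = 0.743). Both overlapped between genotypes. Of the 11 phyla compared (ASVs without a phylum counted as one), 4 did not overlap, each with an exact permutation p = 0.0286 and an adjusted p of 0.0786 over the 11. Campilobacterota, which is here Helicobacter, averaged 5.99% in wild-type and 0.000778% in knockout mice, Cyanobacteria 0.203% and 0.0218%, and Patescibacteria 0.309% and 0.0899%. ASVs without a phylum averaged 0.0124% and 0.126%.

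The genotypes differed in many of their ASVs. In a test of each ASV (edgeR's quasi-likelihood test with Benjamini-Hochberg adjustment over the 1056 ASVs), 558 ASVs, or 52.8%, had an adjusted p below 0.05, the threshold used throughout. Of these, 220 were higher in knockout mice, which is 20.8% of the ASVs tested, and 338 were lower, which is 32.0%. Between genotypes, the lowest mouse of one lay above the highest of the other for 397 ASVs, or 37.6%. The 220 ASVs held between 58.7% and 68.6% of the counts of a knockout mouse (63.5% ± 4.04, SD, n = 4) and 2.07% ± 0.300 of those of a wild-type mouse. The 338 ASVs held between 66.1% and 71.2% of the counts of a wild-type mouse (69.3% ± 2.36, SD, n = 4) and 0.428% ± 0.134 of those of a knockout mouse. These shares describe ASVs picked by the test itself.

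Most of the ASVs that passed the test were not detected at all in the other genotype. Of the 220 higher ASVs, 189 had 0 counts in all 4 wild-type mice, and of the 338 lower ASVs, 325 had 0 counts in all 4 knockout mice. Over the whole table, 1471 ASVs had a count in the 8 water mice. Of these, 454 were found only in knockout mice, 692 only in wild-type mice and 325 in both. Absence from 1 genotype was thus usual over all ASVs. Counted without any test over the whole table, 170 ASVs were found in at least 3 knockout mice and in no wild-type mouse, 124 of them in all 4. They held 46.4% ± 3.78 of the counts of a knockout mouse, with the lowest mouse at 43.1% and the highest at 51.7%. In the other direction, 295 ASVs were found in at least 3 wild-type mice and in no knockout mouse, 202 of them in all 4, and they held 60.2% ± 1.86 of the counts of a wild-type mouse. A further 92 ASVs were found in all 8 mice, and these held 34.8% ± 4.33 of the counts in knockout mice and 22.5% ± 0.656 in wild-type mice.

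Distances shrank as ASVs were summed into wider taxa, between genotypes and within them. Bray-Curtis distance runs from 0 for identical shares to 1 for communities with nothing in common. With equal library totals, summing ASVs can only lower this distance or leave it unchanged, so the direction of this change was fixed in advance. Between a knockout and a wild-type mouse it lay between 0.808 and 0.881 over the 16 pairs at the level of ASVs, and it averaged 0.338 for genus-level groups, 0.282 for families and 0.0891 for phyla. Within genotypes it averaged 0.445 among knockout and 0.352 among wild-type mice for ASVs, and 0.126 and 0.140 for families. Genotype accounted for an R2 of 0.706 of the squared distances among ASVs, 0.589 among genus-level groups and 0.712 among families, each with p = 0.0286 in an exact permutation test over 35 splits, the smallest p that 4 against 4 mice allow. Among phyla R2 was 0.382, with an exact permutation p = 0.114. At the level of ASVs every one of the 8 mice had its nearest neighbour within its own genotype.

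**Figure D1:**
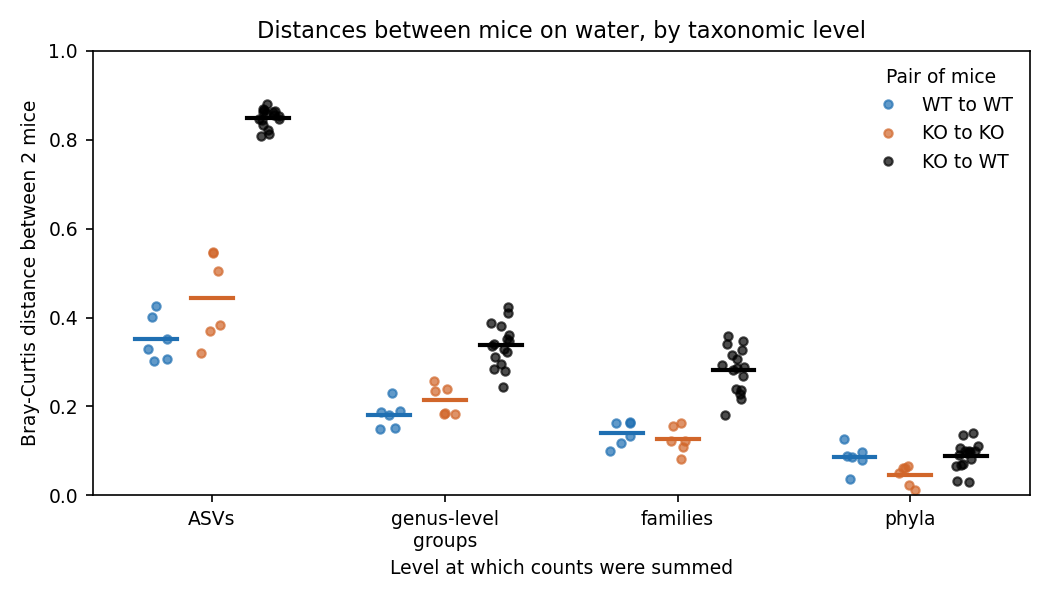
Bray-Curtis distance (vertical axis, 0 to 1) for each pair of the 8 water mice, with counts summed at 4 levels (horizontal axis). Points are pairs, lines are means over 6 WT, 6 KO and 16 mixed pairs. At the ASV level the lowest mixed pair, 0.808, lies above the highest pair within a genotype, 0.547, while at the phylum level the mixed pairs overlap with those within genotypes.

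The part of the ASV distance that disappears on summing is replacement of ASVs inside the same genus-level group. Between genotypes this part averaged 0.511, or 60.2% of the ASV distance, against 0.231 within knockout and 0.171 within wild-type mice (exact permutation p = 0.0286 over 35 splits). Replacement inside families averaged 0.567 between genotypes, 66.8% of the ASV distance, against 0.319 and 0.212 within genotypes (exact permutation p = 0.0286). As a share of the ASV distance, replacement within families was no larger between genotypes than among knockout mice, where it made up 71.7%, and it made up 60.2% among wild-type mice. Replacement within genus-level groups made up a larger share between genotypes, 60.2%, than among knockout mice, 51.9%, or wild-type mice, 48.6%. On the group means, ASVs with a higher mean share in knockout mice gained 81.6 percentage points in all. Of that, 50.9 points were offset by losses of other ASVs in the same genus-level group and 55.0 points by losses in the same family. Of the 50.9 points, unclassified Muribaculaceae gave 20.4 and unclassified Lachnospiraceae 11.6. Such groups pool the ASVs of a family that have no genus name. Replacement in them, here and in the distances above, does not show exchange within a genus.

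Knockout mouse 4 stood apart from the other knockout mice. Its distance to the nearest of them, mouse 2, was 0.504, whereas mice 1, 2 and 3 lay between 0.320 and 0.384 of each other. Without this mouse R2 was 0.771 among ASVs, 0.623 among genus-level groups and 0.713 among families, and 440 ASVs passed the test, 430 of them among the 558. Of the 14 families and 52 genus-level groups followed through every fit, 5 groups changed their call without it. Desulfovibrio and Bifidobacterium passed the test, and Oscillibacter, Rikenella and ASF356 no longer did. Other mice weighed more on the calls. Over all genus-level groups, 44 of the 49 calls were kept without mouse 4, the most for any mouse left out. Without knockout mouse 2 it was 36, and without knockout mouse 3 it was 34.

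**Figure D2:**
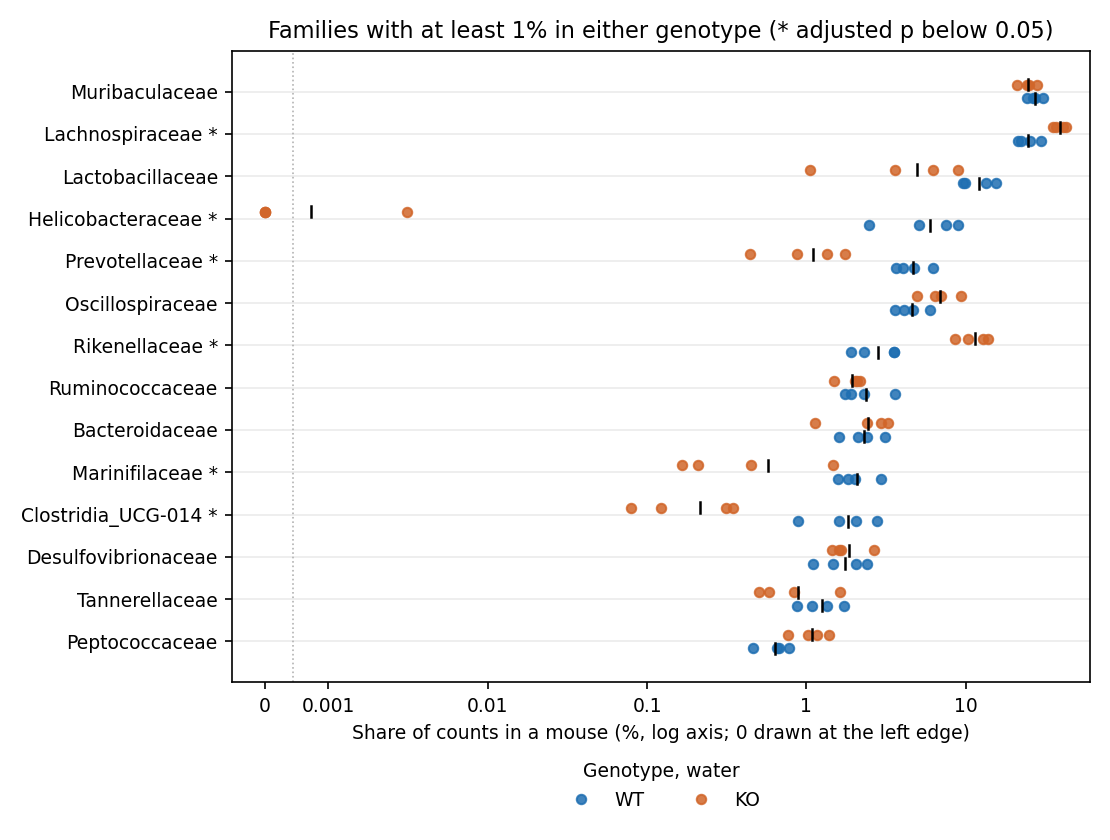
Share of counts (percent, log axis, with 0 drawn at the left edge) of the 14 families with at least 1% in either genotype, in each of the 4 WT and 4 KO mice on water. Points are mice, black ticks are means, and a star marks an adjusted p below 0.05. Lachnospiraceae and Rikenellaceae lie higher in KO in all 4 mice, Helicobacteraceae and Prevotellaceae lower, and Muribaculaceae overlap.

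At the family level 20 of 57 families passed the test, or 35.1%, of which 3 were higher in knockout mice (5.26%) and 17 lower (29.8%). No overlap between genotypes was found for 21 families, or 36.8%. This balance depends on the scaling: with limma on centred log-ratios, which measure each family against the geometric mean of all families, 17 families were higher and 11 lower, and with DESeq2 9 were higher and 14 lower. The median log2 difference over all families was −0.89 on library totals and 0.98 on centred log-ratios. Over genus-level groups the same medians were −0.15 and 0.76, and over ASVs −0.18 and 0.20. Against 220 ASVs higher and 338 lower, DESeq2 called 414 ASVs, 187 higher and 227 lower. On centred log-ratios with pseudocount 0.5, 261 ASVs were higher and 297 lower. Directions below are on the scale of shares, and those that another scaling turned are named.

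Lachnospiraceae, spore-forming Clostridia that include many butyrate producers, were the most abundant family of knockout mice. They made up 29.5%, 25.2%, 22.3% and 21.4% of counts in wild-type mice 1 to 4 and 40.7%, 42.6%, 35.1% and 36.7% in knockout mice 1 to 4. All 4 knockout mice lay above all 4 wild-type mice. The family was 1.58-fold higher in knockout mice (log2 difference 0.66, SE 0.15, edgeR adjusted p = 0.00102) and passed the test under every alternative and without each mouse.

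Rikenellaceae, bile-tolerant Bacteroidota of the genus Alistipes and its relatives, made up 2.31%, 1.90%, 3.54% and 3.55% of wild-type counts and 10.4%, 12.8%, 8.62% and 13.8% of knockout counts. The groups did not overlap, and the family was 4.03-fold higher in knockout mice (edgeR adjusted p = 2.09e-06). All 3 of its genus-level groups passed the test upward. Alistipes rose 3.33-fold, from 2.16% ± 0.547 to 7.18% ± 1.50 (SD, n = 4 each, edgeR adjusted p = 0.000301). The uncultured RC9 gut group rose 7.09-fold, from 0.521% ± 0.266 to 3.69% ± 1.16 (edgeR adjusted p = 0.000494). Rikenella rose 3.61-fold to 0.535%, with an edgeR adjusted p of 0.0427 that stayed below 0.05 in only 1 of the 8 fits that left out a mouse and in 6 of the 9 other alternatives.

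Helicobacteraceae were nearly absent from knockout mice. The family is here the genus Helicobacter, spiral bacteria that live in the mucus layer of the mouse gut. Its share was 2.48%, 8.90%, 7.50% and 5.08% in wild-type mice and 0, 0, 0 and 0.00311% in knockout mice. The wild-type mean of 5.99% thus stood against a knockout mean under 3 counts a library (edgeR adjusted p = 1.06e-10). The main ASV of the genus, ASV4, had 2246, 8379, 6886 and 4531 counts in wild-type mice and 0 in all 4 knockout mice, at least 1837-fold lower.

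Prevotellaceae, degraders of plant polysaccharides, fell as a family and exchanged genera. They made up 4.03%, 3.62%, 4.70% and 6.23% of wild-type counts and 0.870%, 1.75%, 1.34% and 0.445% of knockout counts, 4.21-fold lower without overlap (edgeR adjusted p = 0.000131). This call was lost with limma on centred log-ratios. Alloprevotella held 2.19%, 2.10%, 2.81% and 3.86% in wild-type mice and was at 0 in all 4 knockout mice, at least 881-fold lower (edgeR adjusted p = 4.50e-06). The NK3B31 group, which was 1 ASV, fell from 1.60% ± 0.157 to 0 in all 4 knockout mice, at least 513-fold, and missed the threshold with DESeq2. Prevotellaceae UCG-001 went the other way, with 0.135%, 0.131%, 0.337% and 0.638% in wild-type and 0.870%, 1.75%, 1.34% and 0.445% in knockout mice. It was 3.56-fold higher, with wild-type mouse 4 above knockout mouse 4 (edgeR adjusted p = 0.0142).

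Marinifilaceae, here the butyrate-forming genus Odoribacter, and the uncultured family Clostridia UCG-014 were also lower. Odoribacter made up 1.58%, 2.92%, 2.02% and 1.83% of wild-type counts and 0.208%, 0.166%, 0.451% and 1.47% of knockout counts. Knockout mouse 4 came close to the wild-type range, and the call at the genus level (3.64-fold, edgeR adjusted p = 0.0314) was lost in 4 of the 8 fits that left out a mouse, and with median-ratio size factors and centred log-ratios. Clostridia UCG-014 fell 8.52-fold, from 1.83% ± 0.800 to 0.215% ± 0.133, without overlap and under every alternative (edgeR adjusted p = 0.000151 among families).

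The other 8 families with at least 1% did not pass the test. Lactobacillaceae, lactic acid bacteria that were all of the genus Lactobacillus here, made up 15.4%, 9.60%, 9.93% and 13.3% of wild-type counts and 6.23%, 3.57%, 8.96% and 1.05% of knockout counts. The genotypes did not overlap, but the knockout mice spread from 1.05% to 8.96% and the adjusted p was 0.362 (edgeR). Muribaculaceae, the main glycan-degrading Bacteroidota family of the mouse gut, made up 27.1% ± 2.65 of wild-type and 24.5% ± 2.86 of knockout counts (edgeR adjusted p = 0.563). Measured against the other families they turned to higher in knockout mice and passed the test, with a log2 difference of 0.53 with DESeq2 and 1.46 on centred log-ratios with pseudocount 0.5. Ruminococcaceae, at 2.38% and 1.94%, turned likewise on centred log-ratios, with a log2 difference of 1.35. Oscillospiraceae, Bacteroidaceae, Desulfovibrionaceae, Tannerellaceae and Peptococcaceae had adjusted p-values between 0.130 and 0.965. Oscillospiraceae and Peptococcaceae, 1.50-fold and 1.70-fold higher in knockout mice, passed the test as higher in 4 of the 9 alternatives, and Bacteroidaceae and Desulfovibrionaceae in 2.

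A family can keep its share while its ASVs change, and this was measured apart from the total, on ASV shares within each family or genus-level group. Among 19 genus-level groups with at least 3 ASVs and 100 counts in each mouse, the makeup separated the genotypes at the smallest p the design allows, 0.0286, in 18 (exact permutation test over 35 splits, adjusted p 0.0302). In 13 of these 18 the group's total had not passed the test. The exception was GCA-900066575, a Lachnospiraceae group, at p = 0.143 (exact permutation test). Among 14 families, 13 separated at p = 0.0286 (exact permutation test, adjusted p 0.0308), and Desulfovibrionaceae did not at p = 0.0857. Without knockout mouse 4, 16 families qualified and all 16 separated, this one among them. The smallest p does not rank these taxa. In 10 groups and 9 families the lowest distance between genotypes exceeded the highest distance within one. The most abundant ASV differed between genotypes in 13 of the 19 groups and 11 of the 14 families.

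ASVs higher and ASVs lower in knockout mice sat side by side in the same groups. Of 74 genus-level groups with at least 2 ASVs tested, 38 held ASVs called in both directions, 24 in 1 direction only and 12 none. The 38 groups held 496 of the 558 called ASVs. Among families, 23 of 44 held calls in both directions, and these held 529 of the called ASVs. With 52.8% of all ASVs called, groups and families with many ASVs tend to hold calls in both directions. These counts thus partly follow group size, which was not adjusted for.

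**Figure D3:**
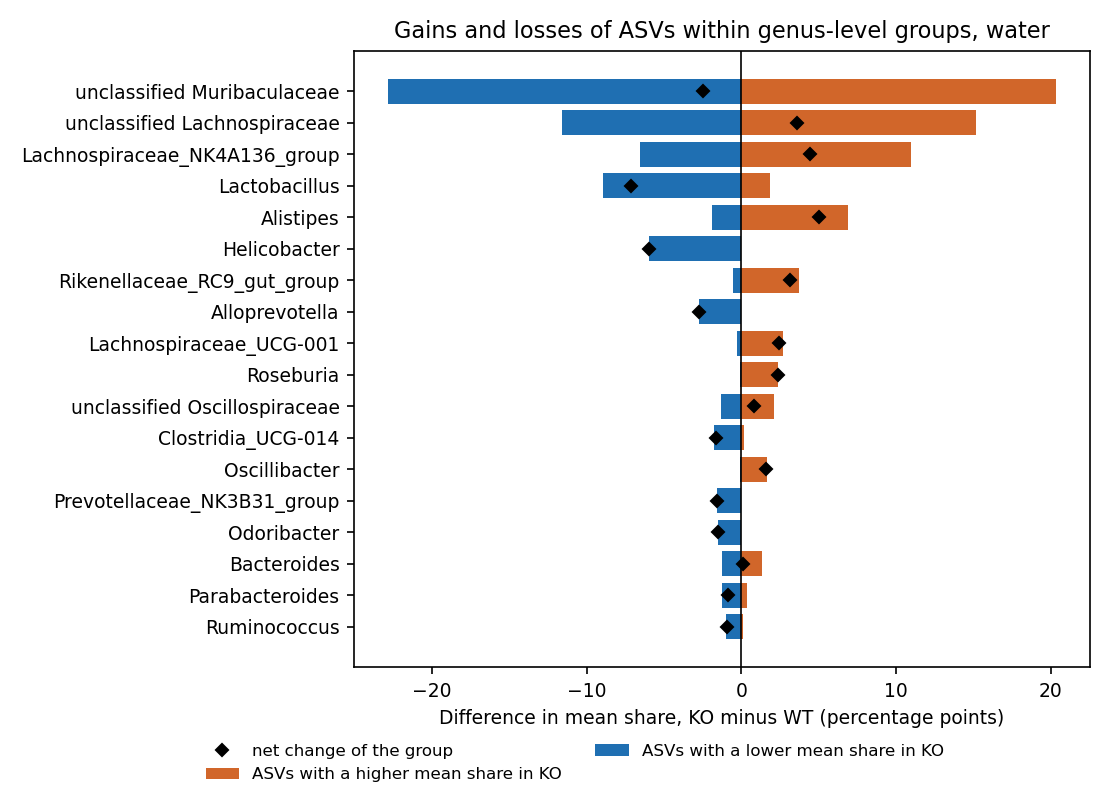
Difference in mean share between KO and WT mice on water (percentage points) in 18 genus-level groups, as the summed gains of ASVs with a higher mean in KO (orange), the summed losses of ASVs with a lower mean (blue) and the net change (diamond). In unclassified Muribaculaceae gains of 20.4 and losses of 22.9 points nearly offset each other, whereas Helicobacter and Alloprevotella show losses with no gain visible at this scale.

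In Muribaculaceae the gains and losses of ASVs nearly offset each other. Of 146 ASVs tested, 54 were higher and 71 lower in knockout mice, so that 85.6% were called against 52.8% of all ASVs. ASVs of the family that gained did so by 20.9 points together and those that lost by 23.5 points. ASV5, the main Muribaculaceae ASV of wild-type mice, had 4817, 3392, 4818 and 4153 counts there and 0 in all 4 knockout mice. It was at least 1432-fold lower (edgeR adjusted p = 3.72e-08). ASV23 followed with 3006, 4320, 3852 and 705 wild-type counts and ASV18 with 2387, 1607, 2506 and 2278. ASV48 had 2325, 920, 1910 and 2319 and ASV22 had 1876, 1395, 1942 and 1690. All of these were at 0 in all 4 knockout mice. ASV20 was the reverse, with 0 in all 4 wild-type mice and 1517, 1218, 2434 and 1805 counts in knockout mice, at least 581-fold higher (edgeR adjusted p = 1.00e-07).

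Some Muribaculaceae ASVs were shared by the genotypes at different levels. ASV13, the most abundant one in knockout mice, had 584, 730, 677 and 667 wild-type counts and 2751, 1946, 2591 and 1281 knockout counts. The groups did not overlap, and the 3.22-fold rise had an edgeR adjusted p of 0.0286 that was lost in 5 of the 8 fits without a mouse. ASV40 rose 15.3-fold, from 90, 184, 122 and 107 counts to 1655, 2217, 2410 and 1425 (edgeR adjusted p = 0.0177). ASV46 and ASV49 were both at 0 in wild-type mice and had between 1740 and 3237 counts in knockout mice 1 to 3, but 49 and 50 counts in knockout mouse 4. ASVs found in no wild-type mouse made up 52.6% of the family's counts in knockout mice, and ASVs found in no knockout mouse made up 79.9% in wild-type mice. In the named genus Muribaculum, whose total was 0.768% and 0.694%, ASVs private to a genotype made up 78.1% of its counts in knockout and 59.9% in wild-type mice.

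In Lachnospiraceae the exchange ran beside the rise of the family. Of 323 ASVs tested, 81 were higher and 84 lower, so that 51.1% were called, near the 52.8% of all ASVs. Gains of 34.1 points stood against losses of 19.9 points. The NK4A136 group, uncultured relatives of butyrate producers, made up 7.25%, 4.66%, 6.72% and 10.2% of wild-type and 20.3%, 8.82%, 9.48% and 7.84% of knockout counts. Its total overlapped between genotypes and did not pass the test (edgeR adjusted p = 0.269). Its leading ASV changed: ASV1 had 3784, 738, 4571 and 5601 counts in wild-type mice, 52.8% of the group, and 27, 0, 8 and 0 in knockout mice, 420-fold lower (edgeR adjusted p = 0.000368). ASV15 was at 0 in wild-type mice and had 5372, 971, 1372 and 133 counts in knockout mice, at least 654-fold higher (edgeR adjusted p = 1.87e-05).

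Lachnospiraceae without a genus name, 14.6% ± 4.45 of wild-type and 18.1% ± 2.48 of knockout counts, did the same without passing the test as a total (edgeR adjusted p = 0.552). ASV36 had 4420, 1781, 1375 and 1269 counts in wild-type mice and 0 in all 4 knockout mice. ASV29 had 0 in all 4 wild-type mice and 1933, 1920, 1115 and 4687 in knockout mice, at least 805-fold higher (edgeR adjusted p = 0.000221). ASV51 was present in both, with 20, 18, 6 and 16 wild-type and 1856, 2624, 1687 and 137 knockout counts, 105-fold higher. Within the family as a whole, ASVs private to a genotype made up 49.4% of counts in knockout mice and 49.4% in wild-type mice.

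Of 19 genus-level groups tested in Lachnospiraceae, 5 rose, 1 fell and 13 did not pass the test, against 13.9% of all genus-level groups that rose and 26.2% that fell. They had a median log2 difference of 1.34 against −0.15 over all genus-level groups. Roseburia, flagellated butyrate producers, held 0.129%, 0.0280%, 0.0321% and 0.0549% in wild-type and 2.38%, 2.68%, 3.86% and 0.686% in knockout mice. It rose 39.4-fold without overlap (edgeR adjusted p = 0.00800) under every alternative. The Eubacterium ventriosum group, also butyrate producers, rose 27.1-fold to 0.351% ± 0.311 (edgeR adjusted p = 0.0165). Marvinbryantia rose 6.99-fold and ASF356, named for a strain of a defined mouse flora, 7.06-fold. Both were lost with TMM scaling and in at least 5 of the 8 fits without a mouse. Tyzzerella rose from 0 to 0.0308%, under the 0.1% set for naming a group, and its 1 tested ASV overlapped between genotypes. Tuzzerella fell 11.3-fold, from 0.309% ± 0.166 to 0.0272% ± 0.0118 (edgeR adjusted p = 0.00304), under every alternative. Blautia stood at 0.176% and 0.734% with an edgeR adjusted p of 0.0577, and Lachnospiraceae UCG-001 ranged from 0.0145% to 1.67% in wild-type and from 0.0746% to 7.79% in knockout mice.

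Rikenellaceae rose and were also almost entirely exchanged. Of 37 ASVs tested, 16 were higher and 15 lower, together 83.8% of them against 52.8% of all ASVs. ASV14 of Alistipes was at 0 in all 4 wild-type mice and had 3040, 2622, 1854 and 1960 counts in knockout mice, 34.2% of the genus there. ASV157, the leading Alistipes ASV of wild-type mice with 374, 293, 620 and 553 counts, was at 0 in all 4 knockout mice. Both differences passed the test (edgeR adjusted p = 1.00e-07 and 0.0151). In the RC9 gut group no ASV was shared by the genotypes: 3 ASVs were found in knockout mice and 4 others in wild-type mice. ASV12 of this group had 2815, 4112, 1262 and 2582 counts in knockout mice. ASVs private to a genotype made up 93.8% of the family's counts in knockout and 82.0% in wild-type mice.

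In Prevotellaceae the losses were of whole genera, each carried by 1 main ASV. ASV8 of Alloprevotella had 2073, 2025, 2712 and 3718 counts in wild-type mice, ASV47 of the NK3B31 group had 1644, 1345, 1498 and 1674, and both were at 0 in all 4 knockout mice. In UCG-001 the main ASV was the same in both genotypes. ASV2 had 130, 126, 325 and 615 counts in wild-type and 663, 1394, 1059 and 355 in knockout mice, an overlapping 2.90-fold rise (edgeR adjusted p = 0.0310) that was lost in 5 of the 8 fits without a mouse. ASV39 joined it in knockout mice with 176, 295, 238 and 74 counts and was at 0 in wild-type mice.

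**Figure D4:**
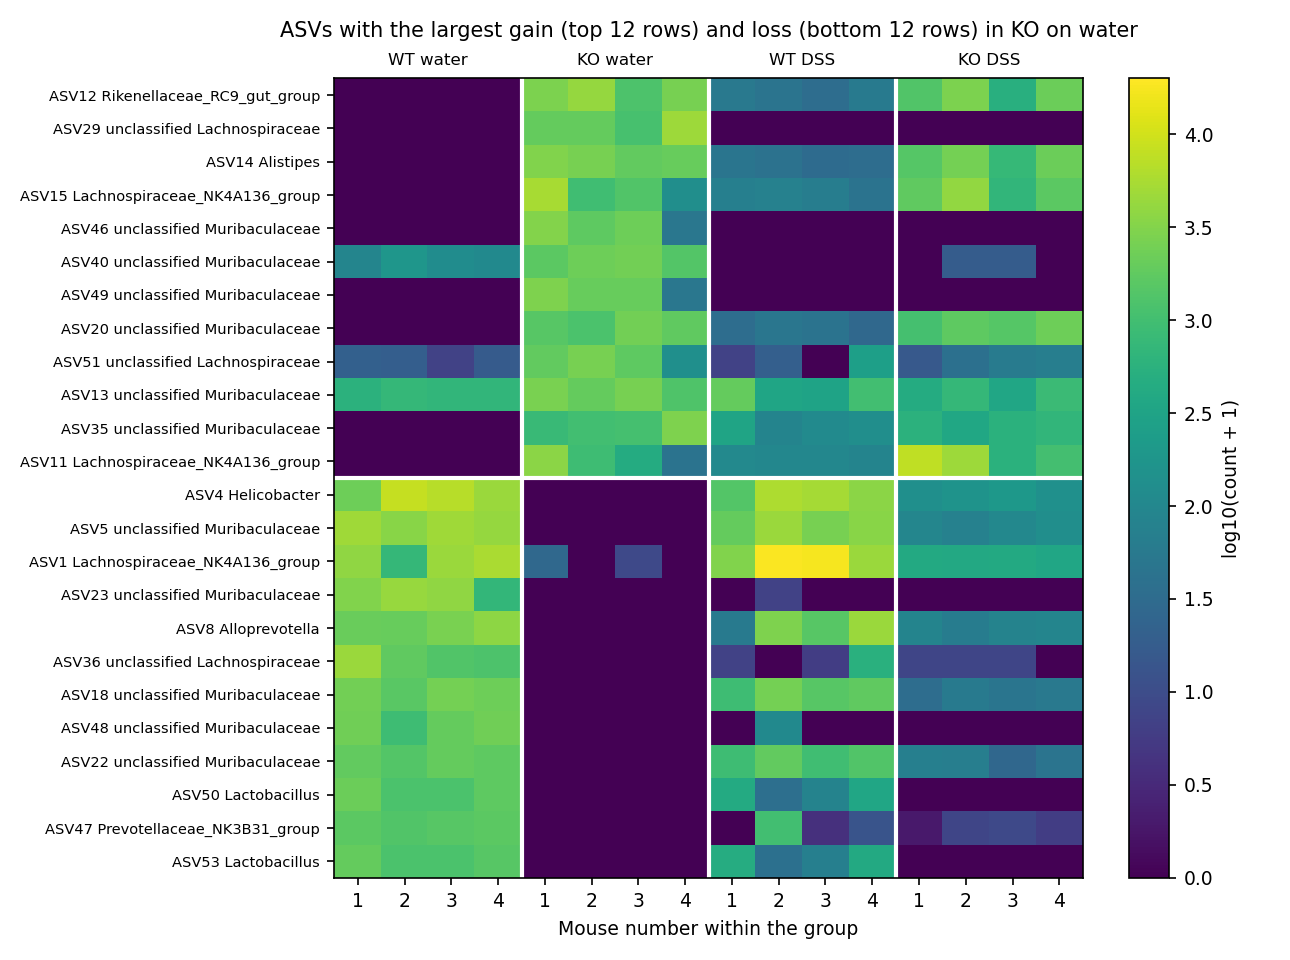
Counts of the 12 ASVs with the largest gain and the 12 with the largest loss in mean share among those called on water (rows), in all 16 mice of the study (columns, in 4 groups), coloured by log10(count + 1). On water 11 of the 12 ASVs that lost are at 0 in all 4 KO mice and the exception, ASV1, has at most 27 counts there, while in DSS mice several ASVs of the other genotype appear at low counts.

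Smaller families showed the same contrast at single ASVs. Peptococcaceae, with totals of 0.640% ± 0.131 and 1.09% ± 0.266, were nearly all ASV92 in wild-type mice, with 393, 569, 649 and 526 counts, and nearly all ASV52 in knockout mice, with 1033, 1261, 699 and 863. Each was at 0 in all 4 mice of the other genotype. Tannerellaceae, relatives of Bacteroides, were led by ASV93 of Parabacteroides in wild-type mice, with 371, 430, 812 and 1163 counts. In knockout mice they were led by ASV85, an ASV without a genus name, with 321, 292, 927 and 412 counts. Neither was found in the other genotype, and private ASVs made up 98.1% of the family in knockout and 89.6% in wild-type mice. As genus-level groups, Parabacteroides fell 3.31-fold (edgeR adjusted p = 0.0359, lost in 3 of the 8 fits without a mouse and in 5 of the 9 other alternatives) and unclassified Tannerellaceae rose at least 163-fold (edgeR adjusted p = 2.48e-06).

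Lactobacillus and Bacteroides kept their leading ASVs. ASV3 of Lactobacillus had 8039, 4892, 4538 and 7027 counts in wild-type and 2920, 2079, 5104 and 367 in knockout mice, and ASV7 of Bacteroides had 709, 376, 577 and 885 against 566, 816, 1558 and 875. Neither passed the test, and both were picked after their values were seen. Beside ASV3, wild-type mice carried ASV50, ASV53 and ASV74 at between 776 and 2171 counts each, all at 0 in knockout mice. Knockout mice carried ASV116 with 539, 341, 810 and 91 counts and ASV276 with 275, 161, 383 and 56, both at 0 in wild-type mice. In Bacteroides, which degrade dietary and host glycans, ASV84 had 547, 583, 217 and 754 counts in wild-type mice and 0 in knockout mice. ASVs private to wild-type mice made up 51.5% of Bacteroides counts there, against 7.13% for those private to knockout mice.

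In Oscillospiraceae and Ruminococcaceae a smaller part of the ASVs was called. In Oscillospiraceae 20 of 121 ASVs were higher and 25 lower, 37.2% of them, against 52.8% of all ASVs, and private ASVs made up 23.6% of counts in knockout and 25.3% in wild-type mice. ASV31 was present in all 8 mice, with 494, 475, 359 and 689 wild-type and 17, 34, 6 and 21 knockout counts, 25.9-fold lower (edgeR adjusted p = 0.000686). Oscillibacter rose 3.63-fold, from 0.609% ± 0.420 to 2.21% ± 0.936, without overlap (edgeR adjusted p = 0.0289, lost with TMM scaling and in 3 of the 8 fits without a mouse, knockout mouse 4 among them). Intestinimonas, which form butyrate, rose 7.56-fold to 0.333% ± 0.193 (edgeR adjusted p = 0.0195, lost with TMM scaling). In Ruminococcaceae 8 of 62 ASVs were higher and 13 lower, 33.9% of them. Private ASVs made up 29.6% of its counts in knockout and 35.9% in wild-type mice. Anaerotruncus rose 9.15-fold to 0.228% ± 0.183 (edgeR adjusted p = 0.0165, not called without knockout mouse 2), whereas Ruminococcus, with 1.24% and 0.321%, was called in the fit of all mice (edgeR adjusted p = 0.0448) and lost in 6 of the 8 fits without a mouse and in 6 of the 9 other alternatives.

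Over all genus-level groups, 49 of 122 passed the test, or 40.2%, of which 17 were higher in knockout mice (13.9%) and 32 lower (26.2%). No overlap between genotypes was found for 46, or 37.7%. On centred log-ratios with pseudocount 0.5 the split was 33 higher and 27 lower, with DESeq2 21 and 27, and with TMM scaling 8 and 31. Of the 49 groups, 29 held at least 0.1% of counts in a genotype, 14 lower and 15 higher. The other 20 were rarer, and 18 of these were lower in knockout mice.

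**Figure D5:**
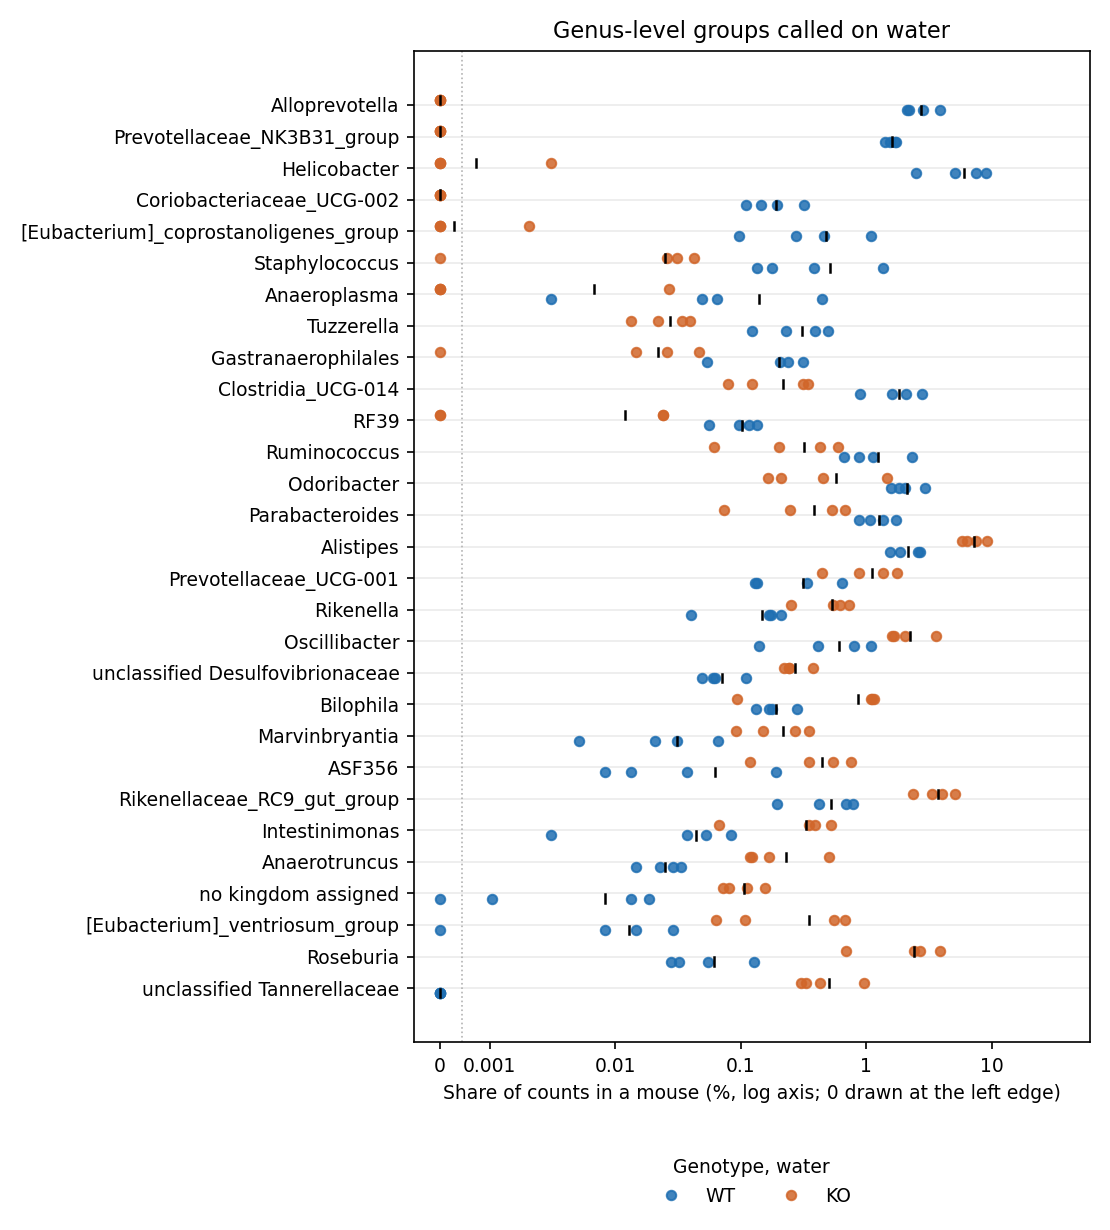
Share of counts (percent, log axis, with 0 drawn at the left edge) of the 29 genus-level groups that had an adjusted p below 0.05 and at least 0.1% in either genotype, in each of the 4 WT and 4 KO mice on water. Points are mice and black ticks are means, ordered from the largest fall to the largest rise. Alloprevotella, the NK3B31 group and Coriobacteriaceae UCG-002 are at 0 in all 4 KO mice, and unclassified Tannerellaceae at 0 in all 4 WT mice.

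Among genera that form butyrate from fibre or amino acids, 3 of 9 tested rose (Roseburia, Intestinimonas and the Eubacterium ventriosum group) and 1 fell (Odoribacter), against 13.9% and 26.2% of all groups. The summed share of the 9 lay between 2.17% and 4.68% in wild-type and between 3.52% and 5.13% in knockout mice, which overlap. Butyricicoccus, with 0.690% and 0.313%, did not pass the test, although its main ASV changed from ASV115 in wild-type to ASV213 in knockout mice. Faecalibacterium, Anaerostipes and Subdoligranulum were under 3 counts a library on average in both genotypes.

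Of 3 genera that live in mucus or on the epithelium, Helicobacter alone passed the test, a share near the 40.2% of all genus-level groups. Mucispirillum ranged from 0.0384% to 0.639% in wild-type and from 0.212% to 0.628% in knockout mice. Candidatus Arthromitus, the segmented filamentous bacteria that attach to the ileal epithelium, averaged 0.0202% and 0.0749%. Of 4 genera that break down mucin and other glycans, Parabacteroides fell and Akkermansia, Bacteroides and Muribaculum did not pass, a share that is no larger than the 26.2% of all groups that fell. Akkermansia was under 3 counts a library on average in knockout mice and at 0 in wild-type mice.

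The sulfur-reducing family Desulfovibrionaceae overlapped between genotypes in its total, at 1.75% ± 0.573 and 1.85% ± 0.558, while 2 of its 3 groups rose, against 13.9% of all genus-level groups. Bilophila, which reduces the sulfite of taurine, held 0.177%, 0.132%, 0.169% and 0.280% in wild-type and 1.09%, 1.10%, 1.15% and 0.0933% in knockout mice. Mice 1 to 3 lay above all wild-type mice and mouse 4 below them, and the 4.52-fold rise (edgeR adjusted p = 0.0315) stayed below 0.05 in only 2 of the 8 fits without a mouse, and was lost with TMM scaling and with the replicate block. Desulfovibrio held 0.881%, 1.80%, 2.15% and 1.12% in wild-type mice and 0.189%, 0.108%, 0.243% and 2.34% in knockout mice. Here too mouse 4 lay opposite to the other knockout mice, and the group did not pass the test (edgeR adjusted p = 0.327). Without mouse 4 it was lower in knockout mice, with a log2 difference of −3.05 (edgeR adjusted p = 0.00161). The group of unclassified Desulfovibrionaceae rose 3.83-fold without overlap (edgeR adjusted p = 0.0160) and was lost with TMM scaling.

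Of 5 oxygen-tolerant genera tested, 3 fell and none rose, against 26.2% and 13.9% of all genus-level groups. Staphylococcus, cocci of skin and fur, held 1.36%, 0.135%, 0.177% and 0.383% in wild-type and 0.0425%, 0.0259%, 0.0311% and 0 in knockout mice. It fell 20.7-fold without overlap (edgeR adjusted p = 0.0223) and was not called without wild-type mouse 1. Corynebacterium averaged 0.0837% in wild-type mice and was at 0 in knockout mice, and Jeotgalicoccus averaged 0.0246% and 0.000259%. Escherichia-Shigella averaged 0.0174% and 0.0140% and did not pass.

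Further falls were seen in groups that are known mostly from sequence. Coriobacteriaceae UCG-002 held 0.316%, 0.111%, 0.146% and 0.194% in wild-type mice and 0 in knockout mice, at least 61.7-fold lower (edgeR adjusted p = 3.22e-05). The Eubacterium coprostanoligenes group, named for a bacterium that reduces cholesterol to coprostanol, held 0.460%, 0.0964%, 0.273% and 1.09% in wild-type mice and 0.00207%, 0, 0 and 0 in knockout mice (edgeR adjusted p = 7.83e-05). Gastranaerophilales, relatives of cyanobacteria without photosynthesis, fell 9.32-fold, and the wall-less Anaeroplasma 20.8-fold and RF39 8.50-fold. These last 3 were each lost in at least 4 of the 8 fits without a mouse, and Anaeroplasma in 4 of the 9 other alternatives. Bifidobacterium held 0.0834% ± 0.0850 in wild-type and 0.586% ± 0.508 in knockout mice, and did not pass the test (edgeR adjusted p = 0.0921). Without knockout mouse 4, which held 0.0166% of it, the group passed as higher, with a log2 difference of 3.22 (edgeR adjusted p = 0.0386). The 4 genera known as reagent contaminants that were tested summed to at most 0.0104% in any mouse, and no ASV assigned to chloroplasts or mitochondria was among those tested.

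Knockout mice held fewer ASVs in the deposited counts, while their Simpson index was higher. Sequencing depth before the common total is not known, so its part in the number of observed ASVs was not tested. Observed ASVs numbered 593, 665, 648 and 604 in wild-type and 497, 479, 498 and 494 in knockout mice. The groups did not overlap, and the mean difference was −135.5 (exact permutation p = 0.0286, two-sided, 70 arrangements, the smallest p possible). With at least 10 counts required the difference was −96.25, and observed genus-level groups went from 103 ± 6.68 to 83.8 ± 4.79 (exact permutation p = 0.0286). The Shannon index of ASVs was 4.81, 4.92, 4.87 and 4.82 in wild-type and 4.89, 4.93, 5.03 and 4.91 in knockout mice, an overlapping difference of 0.0891 (exact permutation p = 0.0857). The Simpson index, which weighs abundant ASVs more, was higher in knockout mice without overlap, by 0.00618 (exact permutation p = 0.0286). The 10 most abundant ASVs of a mouse held 36.3% ± 0.486 of wild-type and 28.6% ± 2.72 of knockout counts. At the level of genus-level groups the Shannon index differed by −0.0844 (exact permutation p = 0.143).

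The same ASVs were followed in the 8 mice on DSS, which were other mice of the same genotypes. There 398 ASVs passed the genotype test, or 37.7%, of which 201 were higher in knockout mice (19.0%) and 197 lower (18.7%). Of the 220 ASVs higher on water, 115 were also higher on DSS, 52.3% of the water list and 57.2% of the DSS list, 3 were called the other way and 102 were not called. Of the 338 lower on water, 142 were also lower on DSS, 42.0% of the water list and 72.1% of the DSS list, 3 were called the other way and 193 were not called. Some could not be followed, since 39 of the 220 and 90 of the 338 had no count in any DSS mouse. ASV29, ASV46 and ASV49 were among these, while ASV5 had between 1902 and 4450 counts in wild-type and between 78 and 133 in knockout mice on DSS.

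Counted together, the 220 ASVs held between 48.5% and 59.1% of the counts of a knockout mouse on DSS and between 8.10% and 16.9% of those of a wild-type mouse on DSS. The 338 ASVs held between 54.7% and 73.3% in wild-type and between 5.02% and 7.87% in knockout mice on DSS. On water the share in the other genotype was at most 2.42% for the former and 0.534% for the latter. In DSS libraries many ASVs of the other genotype were present in all 4 mice at similar low counts. ASV4 of Helicobacter, at 0 in knockout mice on water, had 139, 160, 197 and 145 counts in knockout mice on DSS, and ASV14 of Alistipes had 46, 40, 31 and 34 in wild-type mice on DSS. The source of these counts was not tested.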

How the data were processed

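Libraries of 8 water mice were compared, and all 16 libraries entered the fits to share 1 estimate of the spread. The deposited table gives counts per ASV with a taxonomy, and every library sums to 96469 counts, so the authors had brought the libraries to a common total. Denoiser, 16S region and reference taxonomy: not given in the sources used here. Mouse genome builds, listed in the submitters' processing notes, do not apply to 16S reads. Because the common total hides the sequencing depth of each library, rarer ASVs may be missing. Whether libraries were subsampled or scaled to that total is not given. Counting precision is that of 96469 counts only if they were subsampled.

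ASVs, genus-level groups (an unnamed genus went under its lowest named rank) and families with at least 10 counts and counts in at least 3 libraries were tested with edgeR 4.0.16 (robust quasi-likelihood fit, 1 mean per group, library total as the only scaling) in R 4.3.3, with Benjamini-Hochberg adjustment and a threshold of 0.05. The fitting step was tested on simulated data, in which the mean of a changed ASV was lowered in 1 genotype but not set to 0. That test is not used as support for the calls. A fold against a group at 0 uses a floor of 3 counts per library, which takes counts as reads, and covers counting error only. Single values were compared with two-sided exact permutation tests. Distances were Bray-Curtis. Makeup tests used ASV shares within a taxon. Alternatives were limma 3.58.1 with centred log-ratios (pseudocounts 0.5 and 1), DESeq2 1.42.0, TMM and median-ratio scaling, other filters, only the 8 libraries, a replicate block, and leaving out each mouse.

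Named ASVs were those called with the 12 largest gains and losses in mean share, and up to 3 per direction in families of at least 1%. Named groups were those called with at least 0.1% in a genotype, up to 15 per direction, and list members of at least 0.1%. Other names were chosen after their values were seen. The members and lists were chosen with earlier results of these data known. Nothing says that the 4 mice of a group were housed apart. They may not be independent of each other, whereas the tests treat them as if they were.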

Additional observations from a re-analysis of the deposited data

Results flagged for a closer look

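Dixon's criterion was applied to 290 sets of 4 mice (the named taxa and 3 diversity measures, in each genotype). In 33 of them 1 mouse lay far from the other 3. The criterion's rate of about 1 in 20 holds for independent, normally distributed values. Many of these sets are skewed shares with zeros and some hold the same counts, so the 33 cannot be set against that rate. Knockout mouse 4 was the mouse most often concerned. It was highest in Desulfovibrionaceae at 2.67%, Desulfovibrio at 2.34%, Butyricicoccus at 0.654%, GCA-900066575 at 1.38% and Anaeroplasma at 0.0270%. It was also highest in ASV35 of Muribaculaceae at 3.05%, ASV259 of Ruminococcus at 0.171%, ASV263 of Ruminococcaceae at 0.173% and ASV346 of Clostridia UCG-014 at 0.0498%, and in Helicobacteraceae and Helicobacter at 0.00311% (3 counts). It was lowest in Bilophila and its ASV55 at 0.0933%.

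Knockout mouse 1 was highest in the NK4A136 group at 20.3%, A2 at 0.990%, the Eubacterium coprostanoligenes group at 0.00207%, the Eubacterium siraeum group at 0.134%, unclassified Desulfovibrionaceae at 0.375% and ASV78 of Odoribacter at 0.101%. Knockout mouse 2 was highest in Anaerotruncus at 0.501% and its ASV281 at 0.453%. Wild-type mouse 1 was highest in A2 at 0.295%, ASF356 at 0.191%, Bifidobacterium at 0.210%, Lachnospiraceae UCG-001 at 1.67%, ASV36 of Lachnospiraceae at 4.58% and ASV310 of Colidextribacter at 0.824%, and lowest in Lachnoclostridium at 0.206%. Wild-type mouse 2 was highest in Anaeroplasma at 0.446% and ASV114 of Oscillospiraceae at 0.0124%. Wild-type mouse 4 was highest in the Eubacterium xylanophilum group at 0.228%, ASV211 of Clostridia UCG-014 at 0.421% and ASV289 of Bacteroides at 0.00207%.

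For some named taxa the genotype difference on DSS departed from that on water in the interaction test of the same edgeR fit. Many taxa were named because they differed on water, and that choice favours an interaction of the opposite sign. Each value is the log2 difference between knockout and wild type on DSS minus that on water, and where a genotype was at 0 its fitted size depends on the prior count. Among families and groups, positive values were found for Alloprevotella (9.49), Helicobacter (8.03), the Eubacterium coprostanoligenes group (8.00), Coriobacteriaceae UCG-002 (6.01), Ruminococcus (3.97), Helicobacteraceae (8.03) and Prevotellaceae (2.99). Negative values were found for Roseburia (−12.09), unclassified Tannerellaceae (−6.78), the RC9 gut group (−3.27), Rikenellaceae (−1.18) and Lachnospiraceae (−0.64). Their edgeR adjusted p-values lay between 1.47e-06 for Helicobacteraceae and 0.0388 for Lachnospiraceae. For Ruminococcus, Prevotellaceae, Roseburia and the RC9 gut group the value was larger than the water difference and opposite in sign. Their direction on DSS was thus the reverse of that on water. Ruminococcus had a log2 difference of −1.95 on water and 2.02 on DSS (edgeR adjusted p = 0.0637 on DSS).

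Among ASVs lower on water the value was positive for ASV4 (10.77) and ASV136 (6.22) of Helicobacter, ASV5 (10.14), ASV22 (9.14) and ASV18 (8.95) of Muribaculaceae, ASV8 (9.55) of Alloprevotella, ASV70 (9.08) of Lachnospiraceae, ASV84 (8.28) of Bacteroides, ASV44 (7.80) and ASV78 (4.28) of Odoribacter, ASV93 (7.06) and ASV113 (6.06) of Parabacteroides, ASV92 (6.69) of Peptococcaceae and ASV37 (5.58) of the Eubacterium siraeum group. Among ASVs higher on water it was negative for ASV35 (−11.76) and ASV20 (−8.35) of Muribaculaceae, ASV12 (−9.18) of the RC9 gut group, ASV289 (−9.11) of Bacteroides, ASV14 (−8.70) and ASV33 (−7.82) of Alistipes, ASV15 (−8.96), ASV11 (−8.09) and ASV51 (−7.40) of Lachnospiraceae, ASV52 (−7.08) of Peptococcaceae, ASV85 (−6.64) of Tannerellaceae and ASV39 (−5.63) of Prevotellaceae. Their edgeR adjusted p-values lay between 6.35e-06 for ASV5 and 0.0357 for ASV51. These ASVs had been named for their differences on water. On DSS their log2 differences kept the direction seen on water, except for ASV78 (2.08), ASV289 (−2.04) and ASV51 (−0.70).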

How the results depend on the processing

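ASV calls numbered 357 with counts required in 6 libraries, where 598 ASVs were tested, and 368 with the replicate number as a block, against 558. On DSS the block left 231 of 398. Same-numbered mice did not deviate together (correlations −0.00787, −0.0460, 0.0128 and −0.0313 for numbers 1 to 4), so the numbers were not taken as pairs. An exact permutation within numbers cannot go below p = 0.125, which is what the difference of −135.5 observed ASVs gave. The Simpson difference of 0.00618 passed the test where Shannon did not. Makeup separated 32 groups and 20 families with at least 20 counts a mouse, and 8 groups and 7 families with at least 500, where fewer taxa qualified. Muribaculaceae turned to higher with DESeq2 (0.53), median-ratio size factors (0.53) and centred log-ratios (1.46 with pseudocount 0.5 and 1.28 with 1), and Ruminococcaceae with centred log-ratios (1.35 and 1.17). The cause was not tested.

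Leaving out each of the 8 mice gave from 425 to 490 ASVs, 34 to 49 groups, 14 to 23 families, and −147 to −123 observed ASVs (p = 0.0571 each, the smallest 4 against 3 mice allow, exact permutation). It gave 15 to 20 groups and 13 to 16 families with separated makeup. R2 lay between 0.690 and 0.771 for ASVs, 0.555 and 0.628 for groups and 0.680 and 0.767 for families. Of the 558 ASVs, 388 were called without each mouse in turn, and 334 of those also with DESeq2 and limma. On counts in only 1 mouse rested 11 calls, such as ASV346, with 48 counts in knockout mouse 4. Over named taxa and alternatives, 2145 values kept direction and side of the threshold, 209 lost it, 38 gained it and 6 reversed.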
